A study of Homo sapiens with 4 samples.

Results

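The 75 genes described here encode proteins of the mitochondrial ribosome, 48 named MRPL for the large subunit and 27 named MRPS for the small one. They are the protein-coding genes whose symbol in the array's annotation begins with MRPL or MRPS and a number, among 19775 genes in all, and each was read by its brightest probe set over the 4 arrays. A probe set is a group of short array probes for 1 transcript. Together the 75 genes have 140 probe sets, and they lie on 21 chromosomes.

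The cells were LSTGFBR2, an epithelial colon cancer line that carries the type II TGF-β receptor gene, TGFBR2, in a doxycycline-inducible construct made with the T-Rex system. Of the 4 arrays, 2 came from cells given 5 ng/ml of TGF-β1 for 16 hours, beginning 16 hours after seeding, and 2 came from untreated cells of the same line. The labels give the doxycycline dose as 1 µg/ml in one place and 1 µM in another, and do not say which arrays received it. Total RNA was read on HG-U133 Plus 2.0 arrays, and each value is an RMA value on the log2 scale, so a difference of 1 is a change by a factor of 2.

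The mitochondrial ribosome translates the few messages that mitochondrial DNA encodes, all of them subunits of the respiratory chain and of ATP synthase. Its RNAs come from mitochondrial DNA, while its proteins are encoded in the nucleus, made in the cytosol and imported. Some of the proteins have a counterpart in the bacterial ribosome and others are found only in mitochondria. Doxycycline belongs to the tetracyclines, antibiotics of the bacterial ribosome that also act on mitochondrial translation.

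The library facts that bear on these genes are few. All 10 epithelial and intestinal markers listed lay above the medians of the arrays over genes (7.64 to 7.67), whereas 1 of 6 fibroblast markers (COL1A1), 0 of 4 endothelial and 0 of 4 leukocyte markers did. The summed level of the epithelial markers was 113.1 to 115.4 in TGF-β1 arrays and 113.5 to 115.5 in untreated arrays. The summed fibroblast level was 38.1 to 39.5 in TGF-β1 arrays against 40.7 to 41.5 in untreated arrays, and its part in the results was not tested. TGFBR2 read 14.70 and 14.92 in TGF-β1 arrays and 9.44 and 9.55 in untreated arrays by the probe set used, and 10.58 and 10.76 against 10.47 and 10.81 by the other one. TGF-β1, the TGFBR2 signal and any difference in doxycycline cannot be told apart in this design. In RNA from whole cultures, fewer cells and less RNA per cell cannot be told apart either.

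Nearly all mitochondrial ribosomal protein genes read slightly lower after TGF-β1, and few of the differences passed the test on their own. The log2 difference, TGF-β1 minus untreated, was below 0 for 73 of the 75 genes (97.3%), against 51.2% of all genes (48.8% were above 0) and 53.0% of the 4886 genes with a mean log2 value of 10 or more. Its median was -0.20, a level 1.15-fold lower, with quartiles of -0.30 and -0.11. The median over all genes was 0.00, with quartiles of -0.12 and 0.11. Both TGF-β1 arrays lay below both untreated arrays for 52 of the 75 genes (69.3%). That pattern held for 23.0% of all genes and for 31.8% of those with a mean of 10 or more. It was also frequent in related gene lists, as given below. The groups overlapped for 22 members, and MRPL44 was the only 1 of the 75 with both TGF-β1 arrays above both untreated arrays, a pattern seen in 21.4% of all genes.

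By limma with Benjamini-Hochberg adjustment over all genes, 2 of the 75 genes fell at an adjusted p under 0.05 and 0 rose. The 2 make up 2.67% of the members, close to the 1.47% of all genes called lower (1.87% were called higher) and to the 2.70% among genes with a mean of 10 or more, so the count of calls does not set the members apart. At an unadjusted p under 0.05, 23 members (30.7%) were lower and 0 higher, against 8.54% of all genes lower and 8.18% higher, and against 14.1% lower among genes with a mean of 10 or more. The study's own signature rule, an unadjusted p under 0.05 with a change of 2-fold or more, takes 0 members in its mirror for lower genes (0.369% of all genes) and 0 for higher genes (1.02%). When each array was dropped in turn, 68 to 72 of the 75 differences stayed below 0, against 48.5% to 53.2% of all genes. Such fits have a lone array in 1 group, so only the direction is given. The largest difference among the members was 1.60-fold.

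**Figure D1:**
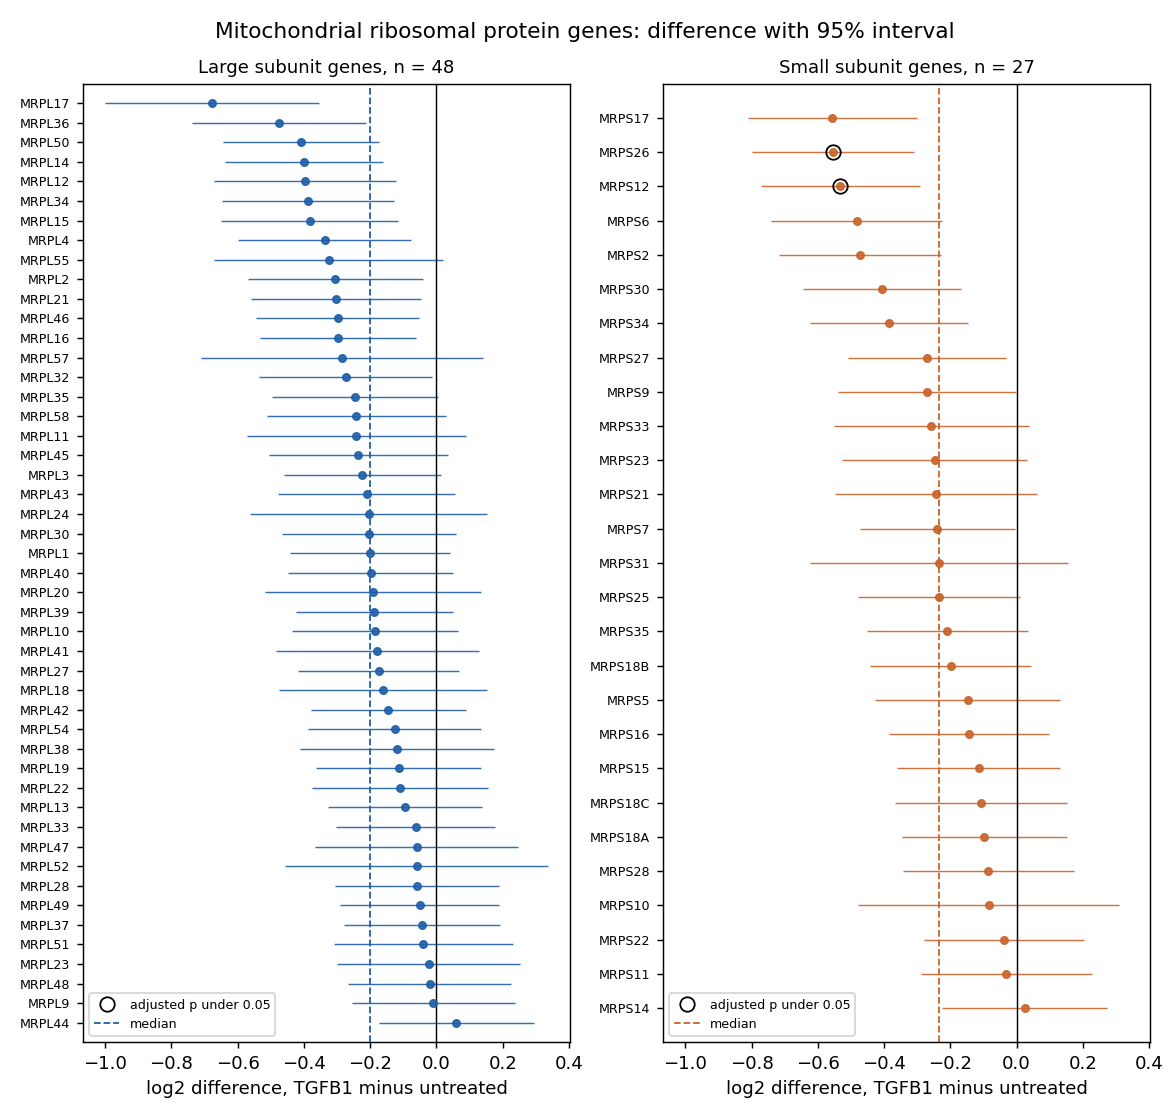
Log2 difference, TGF-β1 minus untreated (x axis), of each of the 48 large subunit genes (left) and 27 small subunit genes (right), with limma's 95% interval, n = 2 arrays per group. Points left of 0 are lower after TGF-β1, which holds for 73 of the 75, and the 2 circled genes have an adjusted p under 0.05.

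The shift was larger than the difference between replicate arrays. The median level of the 75 genes was 11.42 and 11.45 in TGF-β1 arrays against 11.70 and 11.67 in untreated arrays. Between the TGF-β1 replicates the median difference of the members, replicate 1 minus replicate 2, was 0.04, with 32 of 75 lower (42.7%, against 51.2% of all genes). Between the untreated replicates it was 0.05, with 25 of 75 lower (33.3%, against 52.1% of all genes). The members thus also moved partly together between replicates. In the 4 pairs of a TGF-β1 and an untreated array the median difference was -0.16 to -0.26, with 62 to 72 of the 75 genes lower. The median absolute difference was 0.09 in either pair of replicates and 0.17 to 0.26 in the 4 pairs between groups. For arrays with the same replicate number, the median difference was -0.20 in replicate 1 and -0.18 in replicate 2. With 2 arrays per group there are only 6 ways to divide them, so the smallest two-sided p of an exact permutation test would be 0.333. Whether replicates were grown as separate cultures is not stated, and the p-values then reflect only how far these arrays differ, possibly for technical reasons.

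**Figure D2:**
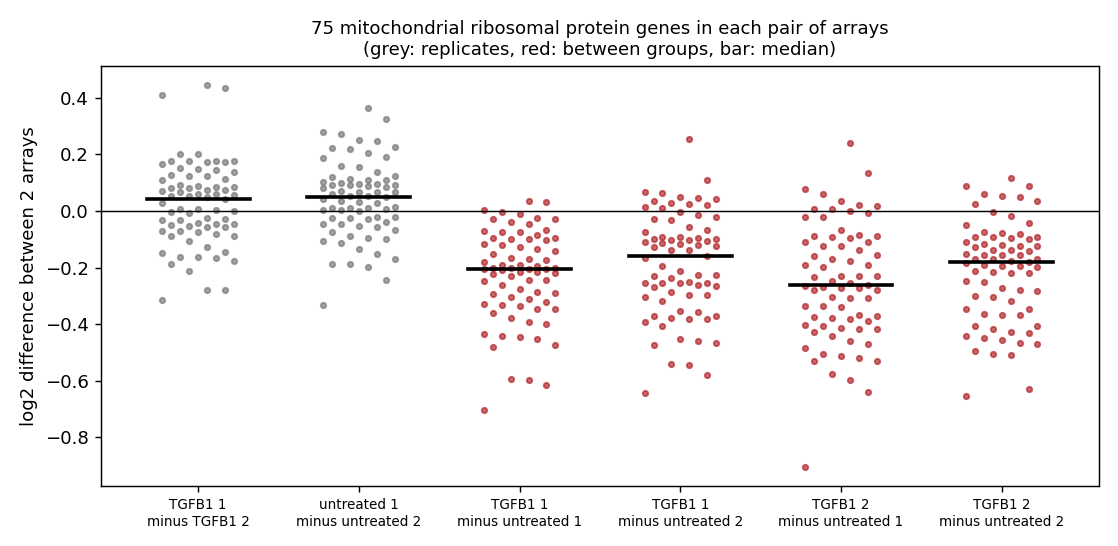
Log2 difference of each of the 75 genes (points) between 2 arrays (y axis), for the 2 pairs of replicates in grey and the 4 pairs of a TGF-β1 and an untreated array in red, with the median as a bar. The replicate medians are 0.04 and 0.05, and the 4 medians between groups lie from -0.16 to -0.26.

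Among the small subunit genes, MRPS26 and MRPS12 fell. MRPS26, a protein of the small subunit that bacteria lack, read 11.16 and 11.11 in TGF-β1 arrays and 11.64 and 11.74 in untreated arrays. With n = 2 per group its log2 difference was -0.56 ± 0.101 (SE), at a limma adjusted p = 0.0454. MRPS12, the counterpart of bacterial S12, a protein of the decoding centre, read 11.67 and 11.74 in TGF-β1 arrays against 12.26 and 12.21 in untreated arrays. Its difference was -0.53 ± 0.099 (SE, limma adjusted p = 0.0484). In both genes the groups were separate and lay several replicate spreads apart. Both calls were lost with the probe sets of a gene averaged (limma adjusted p = 0.0753 for MRPS26 and 0.0591 for MRPS12). They were also lost with the replicate number as a block in the fit (limma adjusted p = 0.0666 and 0.0677). With any 1 array left out, the differences ranged over -0.60 to -0.51 for MRPS26 and -0.57 to -0.49 for MRPS12. Over genes with a mean of 10 or more, a filter chosen after seeing the data, 11 members were called lower, where 6.57% of those genes were.

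MRPS17 and MRPS6 showed the same pattern without passing. MRPS17, the counterpart of bacterial S17, which binds the RNA of the small subunit, read 11.00 and 11.15 in TGF-β1 arrays against 11.62 and 11.65 in untreated arrays, a difference of -0.56 ± 0.105 (SE, limma adjusted p = 0.0501). MRPS6, the counterpart of bacterial S6, read 11.58 and 11.67 in TGF-β1 arrays and 12.17 and 12.04 in untreated arrays, a difference of -0.48 (limma adjusted p = 0.0739). MRPS17 thus lay just outside the threshold and MRPS12 just inside it. At the other end, MRPS14, the counterpart of bacterial S14, read 11.23 and 11.32 in TGF-β1 arrays against 11.30 and 11.21 in untreated arrays. MRPS11, the counterpart of bacterial S11, read 11.54 and 11.51 in TGF-β1 arrays and 11.63 and 11.48 in untreated arrays. In both the groups overlapped, with differences of 0.02 (95% interval -0.23 to 0.27) for MRPS14 and -0.03 (-0.29 to 0.23) for MRPS11.

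In the large subunit 0 of 48 genes passed, though MRPL17 lay close to the threshold. MRPL17, the counterpart of bacterial L17, had the lowest difference of all members. It read 11.46 and 11.25 in TGF-β1 arrays against 12.16 and 11.91 in untreated arrays, -0.68 ± 0.133 (SE, limma adjusted p = 0.0547). It passed with a filter at a mean of 7, an intensity trend or centring (limma adjusted p from 0.0385 to 0.0467). It has 1 probe set, so averaging probe sets left its own values unchanged, at a limma adjusted p = 0.0472. It did not pass with a filter at a mean of 5 (limma adjusted p = 0.0513). With any 1 array left out, its difference ranged over -0.80 to -0.55. MRPL36, the counterpart of the small bacterial protein L36, read 12.09 and 11.94 in TGF-β1 arrays and 12.53 and 12.44 in untreated arrays, a difference of -0.48 (limma adjusted p = 0.0802). MRPL12, which forms the stalk that recruits translation factors and also binds the mitochondrial RNA polymerase, read 11.68 and 11.48 in TGF-β1 arrays against 12.01 and 11.94 in untreated arrays, a difference of -0.40 (limma adjusted p = 0.139). In all 3 genes the groups were separate. At the other end, MRPL44, a protein with a ribonuclease III fold, read 11.04 and 11.09 in TGF-β1 arrays and 11.01 and 11.00 in untreated arrays. Its difference was 0.06 (95% interval -0.17 to 0.30). MRPL9, MRPL48 and MRPL23 had differences of -0.01, -0.02 and -0.02, and in each the groups overlapped.

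**Figure D3:**
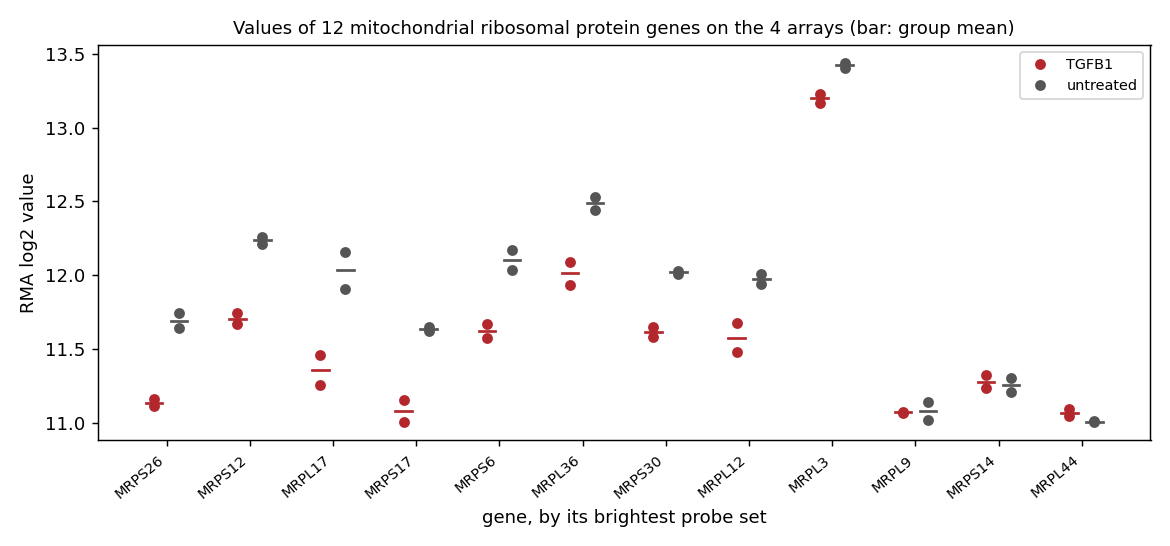
RMA log2 value (y axis) of 12 of the genes on each array, with TGF-β1 arrays in red on the left and untreated arrays in grey on the right of each pair, and the group mean as a bar. The first 9 genes have both TGF-β1 arrays below both untreated arrays, and MRPL9, MRPS14 and MRPL44 do not.

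Neither the brightest nor the dimmest members passed the test. MRPL3, the counterpart of a bacterial protein close to the catalytic centre and the brightest member, read 13.23 and 13.17 in TGF-β1 arrays against 13.40 and 13.44 in untreated arrays. MRPL18 and MRPL57 were next in brightness, with mean levels of 13.11 and 13.04 and differences of -0.16 and -0.29 whose groups overlapped. With 1 array left out these ranged over -0.30 to -0.02 for MRPL18 and -0.50 to -0.07 for MRPL57. The dimmest were MRPL55, MRPL46 and MRPL28, with mean levels of 9.69, 10.19 and 10.40 and differences of -0.33, -0.30 and -0.06, of which 0 passed. With 1 array left out, MRPL55 ranged over -0.49 to -0.16 and MRPL28 over -0.115 to -0.0021. Across the 75 genes the level and the difference were unrelated (Pearson r = 0.02, Spearman rho = 0.01, genes read on the same 4 arrays). Probe sets differ in how strongly they bind, so these levels do not rank the messages by amount.

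The windows below show the start of the genes at both ends of the list, together with MRPS30 and MRPS18A, which carry a motif found often among the members. They are RefSeq sequences of GRCh38.p14, 130 bases each, from 100 bases before to 30 bases after the annotated start, on the strand of the gene. Capitals mark a match to 1 of the 4 motifs searched.
MRPS26 (chr20:3045952-3046081, + strand): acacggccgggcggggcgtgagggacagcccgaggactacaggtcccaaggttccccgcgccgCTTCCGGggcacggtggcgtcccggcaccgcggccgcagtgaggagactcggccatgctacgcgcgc
MRPS12 (chr19:38930844-38930973, + strand): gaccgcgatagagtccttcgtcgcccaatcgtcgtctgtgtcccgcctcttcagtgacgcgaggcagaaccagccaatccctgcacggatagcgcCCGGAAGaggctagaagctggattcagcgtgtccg
MRPL17 (chr11:6683311-6683440, - strand): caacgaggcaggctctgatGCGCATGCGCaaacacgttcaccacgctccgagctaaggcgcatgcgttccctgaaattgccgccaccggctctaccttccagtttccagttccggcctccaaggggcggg
MRPS17 (chr7:55951777-55951906, + strand): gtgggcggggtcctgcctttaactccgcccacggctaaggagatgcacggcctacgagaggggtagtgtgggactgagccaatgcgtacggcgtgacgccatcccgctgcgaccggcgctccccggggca
MRPL36 (chr5:1799808-1799937, - strand): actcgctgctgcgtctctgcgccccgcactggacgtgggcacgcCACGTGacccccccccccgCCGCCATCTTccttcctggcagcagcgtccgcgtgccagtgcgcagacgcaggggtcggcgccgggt
MRPS30 (chr5:44808847-44808976, + strand): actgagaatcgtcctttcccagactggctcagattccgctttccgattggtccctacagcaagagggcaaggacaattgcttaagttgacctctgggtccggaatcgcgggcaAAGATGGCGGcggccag
MRPS18A (chr6:43687762-43687891, - strand): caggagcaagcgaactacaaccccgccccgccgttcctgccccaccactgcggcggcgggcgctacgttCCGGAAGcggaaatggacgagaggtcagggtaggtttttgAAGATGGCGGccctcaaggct
MRPL44 (chr2:223957363-223957492, + strand): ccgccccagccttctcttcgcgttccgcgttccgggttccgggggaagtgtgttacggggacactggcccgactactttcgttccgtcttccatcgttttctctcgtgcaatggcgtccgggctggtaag
MRPS14 (chr1:175023396-175023525, - strand): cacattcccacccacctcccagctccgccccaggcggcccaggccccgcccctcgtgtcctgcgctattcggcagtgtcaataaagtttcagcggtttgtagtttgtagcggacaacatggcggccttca

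The motifs were searched on both strands from 250 bases before to 50 bases after the start, in the first promoter listed for each gene, and 67 of the 75 members had an entry. CCGGAAG, the core bound by ETS factors such as GABPA, was found in 28 of the 67 promoters (41.8%), as in MRPS26, MRPS12 and MRPS18A above. It was found in 10.7% of all 27305 promoters in the table and in 14.4% of those of genes on the array. Nearly all members had a mean log2 value of 10 or more, and promoters of genes at such levels were not compared separately, for this or the other motifs. The site of the factor YY1, marked near the end of the MRPS30 window, was found in 12 of the 67 (17.9%), as also in MRPL36 and MRPS18A, against 1.28% of all promoters and 1.94% of those of genes on the array. Of its 12 matches, 10 began within 40 bases of the start, as did 25 of the 37 matches of CCGGAAG. The site of NRF1, marked in the MRPL17 window, was found in that 1 promoter (1.49%, against 1.36% of all promoters and 1.79% of those of genes on the array), and the E-box CACGTG, bound by MYC among others, in 6 (8.96%, against 7.43% and 8.90%), so neither stood above the genes on the array. No match of 1 motif overlapped a match of another, and 27 of the 67 promoters held none of the 4.

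The difference after TGF-β1 did not follow these letters in a plain way. Members with CCGGAAG had a median log2 difference of -0.18, against -0.24 for the 39 without it. Members with the YY1 site had a median of -0.17, against -0.21 for the 55 without. For the E-box the medians were -0.11 in the 6 genes with it and -0.21 in the 61 without, and the 6 ranged from -0.48 to -0.04. A match is only a description of the sequence, and no match says only that these letters are not in the window.

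The large and the small subunit shifted by about the same amount. The median log2 difference was -0.20 over the 48 large subunit genes, with quartiles of -0.30 and -0.11, and -0.24 over the 27 small subunit genes, with quartiles of -0.33 and -0.11. Both TGF-β1 arrays lay below both untreated arrays for 32 large subunit genes (66.7%) and for 20 small subunit genes (74.1%). The difference was below 0 for 47 of 48 large subunit genes and 26 of 27 small subunit genes. The subunit medians differed by 0.04, which is about the size of the median differences between replicate arrays. In the structure of the mammalian ribosome MRPS30 and MRPS18A sit in the large subunit despite their names. Counting them there left the medians at -0.20 and -0.24.

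Ancestry did not divide the genes either. The 46 genes with a bacterial counterpart had a median difference of -0.20 and the 28 mitochondria-specific ones a median of -0.21. MRPL55 was not classed. Within the small subunit by name, the medians were -0.15 for 17 genes with a counterpart and -0.25 for 10 mitochondria-specific genes. Within the large subunit by name they were -0.20 for 29 and -0.16 for 18. MRPS30 and MRPS18A were counted in the small subunit here, and this split was not repeated by structure. The order of the 2 classes was thus opposite in the 2 subunits as named. MRPS30, a mitochondria-specific protein first named as a programmed cell death protein, read 11.65 and 11.58 in TGF-β1 arrays and 12.01 and 12.03 in untreated arrays, a difference of -0.41 (limma adjusted p = 0.0911). Its 2 other probe sets read -0.58 and -0.49. MRPS18A, MRPS18B and MRPS18C, 3 relatives of bacterial S18 that each stand in the ribosome on their own, had differences of -0.10, -0.20 and -0.11, and 0 of the 3 passed.

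The probe sets that were not used for the genes gave a second reading from the same RNA. Of the 37 members with 2 to 5 probe sets, 29 had all of them below 0. Of all 41097 probe sets with 1 gene symbol, 51.6% were below 0. Of the 65 member probe sets not used, 59 were below 0, with a median of -0.17. Those with a mean log2 value of 7 or more were below 0 in 41 of 42 cases with a median of -0.24, and those under 7 in 18 of 23 with a median of -0.08. MRPS12 shows the pattern, since its probe sets with mean levels of 11.97, 9.71 and 8.12 had differences of -0.53, -0.67 and -0.54, while the fourth, with a mean of 6.87, had -0.02. MRPL44 and MRPS14, above 0 by the probe sets used, were at -0.18 and -0.09 by their second ones. Among the 27 members with at least 2 probe sets of mean 7 or more, these differed by at most 0.31. With adjustment over these 41097 probe sets, 0 of the 140 passed in either direction (0.499% of the 41097 were called lower).

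**Figure D4:**
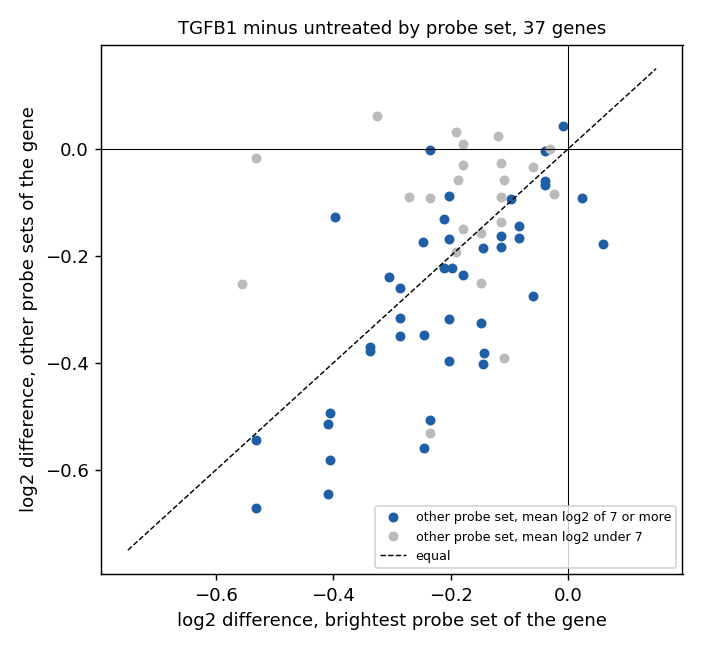
Log2 difference, TGF-β1 minus untreated, of the brightest probe set of a gene (x axis) against that of each of its other probe sets (y axis), for the 37 genes with more than 1. Of the 42 bright other probe sets (blue) 41 lie below 0, and the dim ones (grey) lie nearer to 0.

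In the other lists of mitochondrial translation, RBFA and MARS2 were the only genes that passed, both lower. Over all genes, 1.47% were called lower and 51.2% were below 0. Both TGF-β1 arrays lay below both untreated arrays for 69.3% of the members and 23.0% of all genes. The share was 64.3% in the list of translation factors, 63.0% in that of assembly factors and 65% in that of synthetases. It was 50% among the proteins under other names. Of 4 measured ribosome proteins filed under other names (DAP3, PTCD3, CHCHD1 and GADD45GIP1), all 4 had differences below 0, from -0.21 for PTCD3 to -0.07 for DAP3, and 0 passed. Of 14 genes listed as translation factors, among them the membrane proteins OXA1L and LETM1, 12 were below 0 with a median of -0.22, and 0 passed. The largest changes among them were -0.34 for MRRF, the ribosome recycling factor, and -0.30 for GFM1, an elongation factor (limma adjusted p = 0.201 and 0.189). Of 27 ribosome assembly and rRNA factors, 1 fell, RBFA, which matures the RNA of the small subunit. It read 9.33 and 9.29 in TGF-β1 arrays against 9.90 and 9.81 in untreated arrays, a difference of -0.54 ± 0.100 (SE, limma adjusted p = 0.0470). Of the 27, 23 were below 0 with a median of -0.14, and DDX28, a helicase of assembly, had -0.52 without passing. Of 20 genes in the list of mitochondrial aminoacyl-tRNA synthetases, 1 fell, MARS2, which charges methionine. The list also holds GATB, GATC and QRSL1, which are not synthetases, and GARS1 and KARS1, which also serve the cytosol. MARS2 read 9.34 and 9.11 in TGF-β1 arrays and 10.08 and 9.86 in untreated arrays, a difference of -0.75 (limma adjusted p = 0.0429). Of the 20, 17 were below 0 with a median of -0.14, and EARS2, which charges glutamate, had -0.49 (limma adjusted p = 0.0831). Differences above 0 reached 0.16 for VARS2 and 0.13 for HARS2, which charge valine and histidine, and 0.13 for MTRF1L, a release factor, and 0 of these 3 passed.

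Of 14 regulators of mitochondrial transcription and biogenesis, 4 fell and 0 rose, where 1.47% of all genes were called lower. This list, like the others, was chosen with earlier results of these data known. Together with RBFA and MARS2 the 4 regulators make 6 calls in the related lists, where 660 of 19775 genes were called in either direction. The count was 10 over genes with a mean of 7 or more (910 of 11342 genes called). It was 3 over probe sets (592 of 41097 called) and 4 with the replicate number as a block (561 of 19775 genes called). MYC, a transcription factor that promotes ribosome and mitochondrial biogenesis, read 10.55 and 10.42 in TGF-β1 arrays against 12.14 and 11.99 in untreated arrays (limma adjusted p = 0.00311). PPARGC1B, a coactivator of nuclear genes for mitochondria, read 7.36 and 7.54 in TGF-β1 arrays and 8.73 and 8.58 in untreated arrays (limma adjusted p = 0.00811). Its relative PPRC1 read 9.14 and 9.14 in TGF-β1 arrays against 9.87 and 9.93 in untreated arrays (limma adjusted p = 0.0185). The fourth, named after its values were seen, was TFAM, which packages mitochondrial DNA and starts its transcription, at a difference of -0.55 (limma adjusted p = 0.0435). The factors whose motifs were searched, apart from MYC, had differences of -0.01 for NRF1, 0.06 for GABPA and -0.05 for YY1, and 0 of these 3 passed.

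In the genes of the cytosolic ribosome and the respiratory chain, 0 passed the test and the medians were near 0, though nearly all cytosolic ribosomal protein genes were below 0. The 58 cytosolic ribosomal protein genes had a median difference of -0.05, with quartiles of -0.07 and -0.03. Of them 55 (94.8%) were below 0, against 51.2% of all genes. Both TGF-β1 arrays lay below both untreated arrays for 32 (55.2%), against 23.0% of all genes. By limma 0 passed at an unadjusted or an adjusted p under 0.05. Their median level was 14.48, near the highest value on these arrays (15.34), and whether that limits the size of difference they can show was not tested. The 53 nuclear-encoded genes of respiratory complexes I to IV, with a median level of 12.72, had a median difference of -0.03. Of these 34 (64.2%) were below 0, 14 (26.4%) had both TGF-β1 arrays below both untreated arrays, and 0 passed at either threshold. The largest changes in these lists were -0.23 for RPL36, a cytosolic large subunit protein, and -0.22 for SDHD, a subunit of succinate dehydrogenase. The lower quartile of either list (-0.07 and -0.08) lay above the upper quartile of the 75 members (-0.11). The difference between the lists was not tested, because genes are not replicates of a condition.

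**Figure D5:**
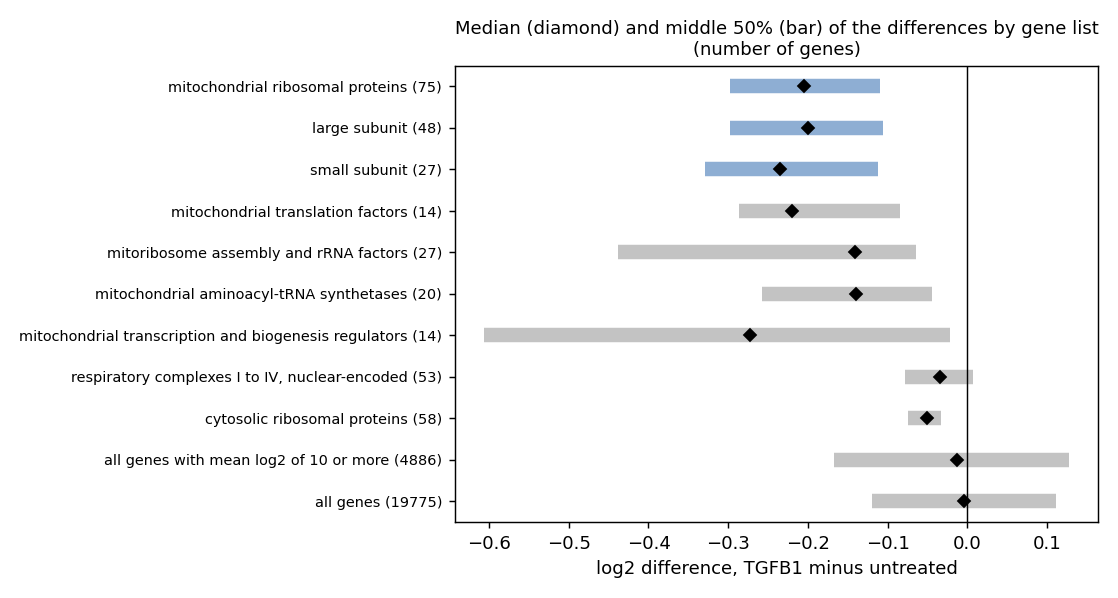
Median (diamond) and range between the quartiles (bar) of the log2 differences, TGF-β1 minus untreated (x axis), for the mitochondrial ribosomal proteins (blue), related gene lists and all genes (grey), with the number of genes in brackets. The members' median is -0.20, against -0.05 for cytosolic ribosomal proteins, -0.03 for respiratory complexes and 0.00 for all genes.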

How the data were processed

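The deposited table holds 54675 probe sets on 4 arrays. RMA, named in the submitters' design text, was used by the authors to correct background, normalize by quantiles and summarize probes. The deposited numbers span 2.48 to 15.34 and were taken as log2 for that reason. Quantile normalization hides a shift shared by most genes. The platform annotation gave 41097 probe sets 1 gene symbol, symbols were updated through the Entrez ID, and the brightest probe set of each gene was kept. Among the members, 2 noncoding probe sets and 3 probe sets that share a symbol with another gene were left out.

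TGF-β1 arrays were set against untreated arrays by lmFit and eBayes of limma 3.58.1 (R 4.3.3; two-sided, no covariate, no filter, 6.13 degrees of freedom), with Benjamini-Hochberg adjustment over all 19775 genes and a threshold of 0.05. The fit was tested on simulated data. Members, lists and alternatives were chosen with earlier results of these data known, so no list was tested. The text names members that were called, the 6 highest and 6 lowest differences, the 3 brightest and 3 dimmest, and several chosen for their roles, and for each related list the called genes or those with the largest change. Precision is limited by having 4 arrays. The samples share replicate numbers, but the labels do not say that these mark shared cultures. Alternatives were filters on dim genes, an intensity trend, centring, other uses of probe sets, a replicate block and leaving out each array.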

Additional observations from a re-analysis of the deposited data

How the results depend on the processing

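The direction of the shift was kept under every alternative run, while the count of called members moved. The main fit called 2 members lower, among 660 of 19775 genes called in either direction. Over genes with a mean log2 value of 7 or more, 6 members were called, among 910 of 11342 genes. Over genes with a mean of 10 or more, chosen after seeing the data, 11 were called, where 6.57% of genes were called lower. An intensity trend called 7 members, among 802 of 19775 genes, and centring arrays on their medians called 4, among 701. Over probe sets 0 were called, among 592 of 41097. A replicate block called 1 member, among 561 genes. By limma with this block the adjusted p was 0.0446 for MRPL17, 0.0666 for MRPS26 and 0.0677 for MRPS12. At an unadjusted p under 0.05, 23 members were lower, against 8.54% of all genes. The study's 2-fold rule took 0, against 0.369% of all genes lower. Leaving out an array leaves a lone array in 1 group, assumed to vary like the other group. With 1 array left out the median difference was -0.226 to -0.183 over the members, -0.232 to -0.165 over the large subunit, -0.244 to -0.210 over the small subunit and -0.015 to 0.0071 over all genes. Centring gave -0.227 over the members, -0.222 over the large subunit and -0.026 over all genes. The median over all genes with a mean of 10 or more was -0.013, and over small subunit probe sets -0.199. The 6 genes of the related lists called lower became 10 over genes with a mean of 7 or more, 3 over probe sets and 4 with a replicate block. Averaging probe sets brought the median level of the members to 10.7 from 11.5. It also turned MRPL44 to -0.058, MRPS14 to -0.033 and MRPL9 to 0.017. With 1 array left out, differences near 0 changed sign within -0.126 to 0.079 for MRPL23, -0.062 to 0.020 for MRPL48, -0.069 to 0.051 for MRPL9, -0.109 to 0.048 for MRPS11 and -0.023 to 0.072 for MRPS14. Deviations from the group means of arrays with the same replicate number correlated at 0.364 over all genes and 0.485 over the 75 members, and the cause was not tested.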
